A study of Bos taurus with 6 samples.

Results

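NDUFA3, NDUFB4 and GABPB2 are 3 nuclear genes tied to mitochondrial respiration, and they are described here in the muscle of Angus and Luxi cattle. They are 3 of the 232 entries in the authors' deposited table of genes that differed between the breeds, and each was found there by its symbol. The members were chosen by their deposited breed means and ratios, so those values are given as a description and were not tested. The complex I subunits NDUFA3 and NDUFB4 averaged 2.16-fold and 2.41-fold higher in Angus, whereas GABPB2, a subunit of a transcription factor, averaged 3.12-fold higher in Luxi, from the authors' deposited table.

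Muscle came from 3 Angus and 3 Luxi animals, all 18 months old. Angus cattle, first bred in Scotland, are kept for beef, and Luxi is a yellow cattle breed of China. The labels name no treatment, do not say which muscle was taken and give no sex. The deposited values were read as means over the 3 libraries of a breed, given as read counts and as RPKM, which scales reads to gene length and library depth. Reads of single libraries were worked back from these means, with recovered depths from 5429317 to 5736365 reads in Angus and from 5799075 to 6047227 reads in Luxi. Libraries are named by their depth, since the sources used here do not tie them to animals. In bulk tissue, fewer cells of a type and less RNA per cell cannot be told apart, and genes outside the table were not analysed here.

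Complex I, the NADH dehydrogenase of the inner mitochondrial membrane, passes electrons from NADH to ubiquinone and pumps protons. Its core subunits are encoded partly in the nucleus and partly in mitochondrial DNA, and its accessory subunits, NDUFA3 and NDUFB4 among them, in the nucleus alone. Accessory subunits carry no redox centre and serve in assembly and stability, NDUFA3 with the proton-pumping module near its base and NDUFB4 in the distal part of the membrane arm. GABP, also called nuclear respiratory factor 2, binds DNA through its alpha subunit, an ETS-family protein. Its beta subunits, GABPB1 and GABPB2, bring the activation function and ankyrin repeats that hold the alpha subunit. Genes for respiratory chain subunits are among its known targets.

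NDUFA3 (gene identifier 338064, deposited length 785 bases) had the highest level per length of the members in both breeds. In the authors' deposited table its mean was 34.4 RPKM for Angus against 15.9 RPKM for Luxi, which placed it at rank 38 of 232 entries in Angus and rank 56 in Luxi. The summed reads were 448 in Angus and 222 in Luxi, and the ratio of 2.16 had an interval of 1.84 to 2.55 (exact, 95%). This interval, like those below, covers counting error alone and leaves out the spread between animals.

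The Angus reads of NDUFA3 had 9 whole-number solutions in 3 clusters. With the deepest, middle and shallowest library in that order, they ran from 37, 232 and 179 reads to 39, 228 and 181, from 91, 123 and 234 to 93, 119 and 236, or from 145, 14 and 289 to 147, 10 and 291. The shallowest Angus library was thus high in every solution, at 42.0 to 68.3 RPKM. The Luxi reads had 5 solutions, which were 56, 166 and 0, then 70, 129 and 23, then 84, 92 and 46, then 98, 55 and 69, and last 112, 18 and 92. The highest Luxi library in any of them was at 35.9 RPKM, so the shallowest Angus library lay above all Luxi libraries in every solution. The lowest Angus library lay at 2.28 to 20.7 RPKM, and in 4 of 45 pairs of solutions all Angus libraries exceeded all Luxi libraries. The SD over libraries was 18.2 to 33.0 RPKM in Angus and 4.42 to 18.3 RPKM in Luxi, depending on the solution (n = 3).

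NDUFB4 (gene identifier 327706, deposited length 715 bases) had means of 18.4 RPKM for Angus and 7.62 RPKM for Luxi in the authors' deposited table, from 219 and 96 summed reads. The ratio of 2.41 had an exact counting interval of 1.89 to 3.10. The Angus reads had 5 solutions of a pair of kinds. In 3 of them the middle library held most reads, from 8, 179 and 32 to 10, 175 and 34 in the deepest, middle and shallowest library. In the other two the libraries were nearly level, with 63, 68 and 88 reads or 64, 66 and 89.

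The Luxi reads of NDUFB4 had 2 solutions, 1, 78 and 17 reads or 15, 41 and 40, from deepest to shallowest. The deepest library was thus the lowest of its breed in all 5 Angus and both Luxi solutions. With the level Angus solutions and the second Luxi solution the breeds did not overlap, with Angus libraries at 15.4 to 22.9 RPKM and Luxi libraries at 3.47 to 9.73 RPKM. That was the case in 2 of 10 pairs of solutions. In the remaining pairs the libraries overlapped, since 1 Angus library was as low as 1.95 RPKM or 1 Luxi library as high as 18.5 RPKM. The SD lay between 3.83 and 23.2 RPKM in Angus and between 3.59 and 9.64 RPKM in Luxi (n = 3).

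The 2 subunits stood in a similar proportion to each other in both breed means. The quotients given here restate the breed ratios by which the members were chosen, and are no evidence that the genes vary together. NDUFA3 was 1.87 times the RPKM of NDUFB4 in Angus and 2.09 times in Luxi, from the authors' deposited table. GABPB2 was the lowest of the 3 in both breeds, by unequal margins. In Angus the RPKM of NDUFA3 was 16.4 times and that of NDUFB4 8.76 times that of GABPB2, and in Luxi the same quotients were 2.43 and 1.17.

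GABPB2 (gene identifier 540818, deposited length 2346 bases) had the lowest level per length of the members. In the authors' deposited table its Angus mean was 2.10 RPKM, at rank 193 of 232 entries, and its Luxi mean 6.53 RPKM, at rank 113. The RefSeq gene table for the assembly ARS-UCD2.0 gives this identifier the symbol GABPB2. It also lists GABPB2 as an older name of GABPB1, which has another identifier and was not analysed here. Summed reads were 82 in Angus and 270 in Luxi, and the ratio of 3.12 in favour of Luxi had an exact counting interval of 2.43 to 4.04.

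GABPB2 was the member whose Angus reads had a single solution, with 18 reads in the deepest, 37 in the middle and 27 in the shallowest library. These correspond to 1.34, 2.83 and 2.12 RPKM, a mean of 2.10 ± 0.745 RPKM (SD, n = 3). The exact counting intervals of the lowest and highest library, 10.7 to 28.4 and 26.1 to 51.0 reads, overlapped. The Angus libraries of GABPB2 thus spanned 1.34 to 2.83 RPKM.

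Luxi reads of GABPB2 had 5 solutions, which from deepest to shallowest were 13, 180 and 77, then 27, 143 and 100, then 41, 106 and 123, then 55, 69 and 146, and last 69, 32 and 169. The shallowest Luxi library lay at 5.66 to 12.4 RPKM and exceeded the highest Angus library, at 2.83 RPKM, in every solution. The deepest Luxi library lay at 0.916 to 4.86 RPKM and was the lowest of its breed in 4 of 5 solutions. In 2 of 5 solutions, the third and the fourth, all Luxi libraries exceeded all Angus libraries, in the third by 2.89 against 2.83 RPKM. The SD over the Luxi libraries was 3.23 to 6.10 RPKM (n = 3).

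**Figure D1:**
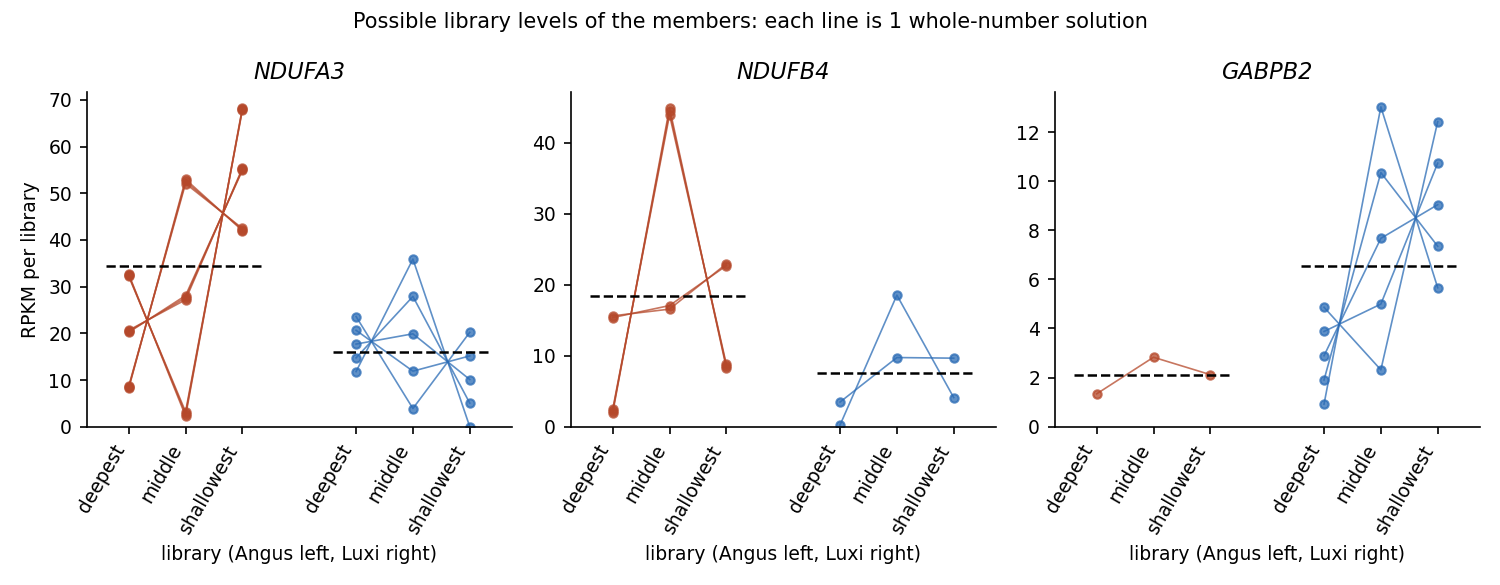
Level in each library (y axis, RPKM from recovered reads) of NDUFA3, NDUFB4 and GABPB2, with the Angus libraries on the left and the Luxi libraries on the right of each panel, ordered by depth. Each line joins the 3 libraries of 1 whole-number solution and the dashed line is the deposited breed mean; the single Angus line of GABPB2 runs from 1.34 to 2.83 RPKM, while the middle Angus library of NDUFA3 lies between 2.28 and 53.0 RPKM, depending on the solution.

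Over the whole table, the breeds did not overlap in any solution for 27.2% of entries and did not overlap in at least 1 solution for 75.0%. These shares include entries listed at 0 in 1 breed. Among the 185 entries above 0 in both breeds, as the members are, the shares were 10.8% and 68.6%. None of the 3 members belonged to the first class, and all 3 belonged to the second. The deepest Angus library was lowest in the single solution of GABPB2, in all 5 of NDUFB4 and in 6 of 9 of NDUFA3. Among the 81 entries whose Angus reads had a single solution, it was lowest in 24 and highest in 34. In Luxi the deepest library was lowest in 22 of 55 such entries. NDUFA3 and NDUFB4 had more than 1 solution and are not among these entries, so whether the order is shared by entries like them was not tested.

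The authors' deposited table gave a p-value of 4.08e-08 (FDR 1.80e-06) for NDUFA3, 1.52e-05 (FDR 4.15e-04) for NDUFB4 and 1.67e-08 (FDR 7.71e-07) for GABPB2. NDUFB4 was close to the end of the table, where only 14 entries had a larger p and the largest was 3.86e-05. To see what enters these p-values, they were recalculated by the formula of Audic and Claverie for 2 Poisson counts, with each breed taken as 1 library holding the mean count. The recalculated values were within 5% of the deposited ones for 121 of 130 entries with a deposited p above 1e-10, the 3 members among them. A p of this kind contains no spread between animals and is no further evidence for the members.

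With 1 library left out at a time, the ratios of the subunits ranged more widely over all solutions than that of GABPB2. These ranges also widen with the number of solutions, which was 9 for the Angus reads of NDUFA3 and 1 for those of GABPB2. The log2 ratio of Angus over Luxi for NDUFA3 was 1.11 in full and stayed above 0 in every solution whichever library was missing. Without the shallowest Angus library it was 0.14 to 0.94, below 2-fold in every solution. It also could fall below 2-fold without the middle Angus library (0.66 to 1.67) and without the deepest (0.94 to 1.51), middle (0.65 to 2.54) or shallowest (0.53 to 1.32) Luxi library. Without the deepest Angus library it was 1.15 to 1.58.

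For NDUFB4 the log2 ratio was 1.27 in full, and in some solutions its direction depended on 1 library. Without the middle Angus library it lay between -0.58 and 1.34, the lower end belonging to the solutions in which that library held most reads. It dropped below 2-fold in both solutions without the deepest Luxi library (0.70 to 0.92), and lay between 0.97 and 1.48 without the shallowest. Without the middle Luxi library it rose to between 1.49 and 3.08. It stayed above 2-fold without the deepest (1.37 to 1.80) or the shallowest (1.08 to 1.62) Angus library.

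GABPB2 stayed higher in Luxi in every solution and with every library left out. The log2 ratio of Angus over Luxi was -1.64 in full, and -1.40, -1.92 and -1.65 without the deepest, middle and shallowest Angus library. Without the deepest Luxi library it was -2.16 to -1.81. The difference was smallest without the middle Luxi library, at -2.04 to -0.65, and without the shallowest, at -1.73 to -0.78, so that 2-fold was not assured there. Direction was kept throughout by 2 of the 3 members, NDUFA3 and GABPB2, against 56.0% of all 232 entries and 44.9% of the 185 above 0 in both breeds. A ratio of at least 2 was kept throughout by 0 of the 3 members, against 33.6% of all entries and 16.8% of the 185. Entries with more solutions can miss either condition more easily.

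**Figure D2:**
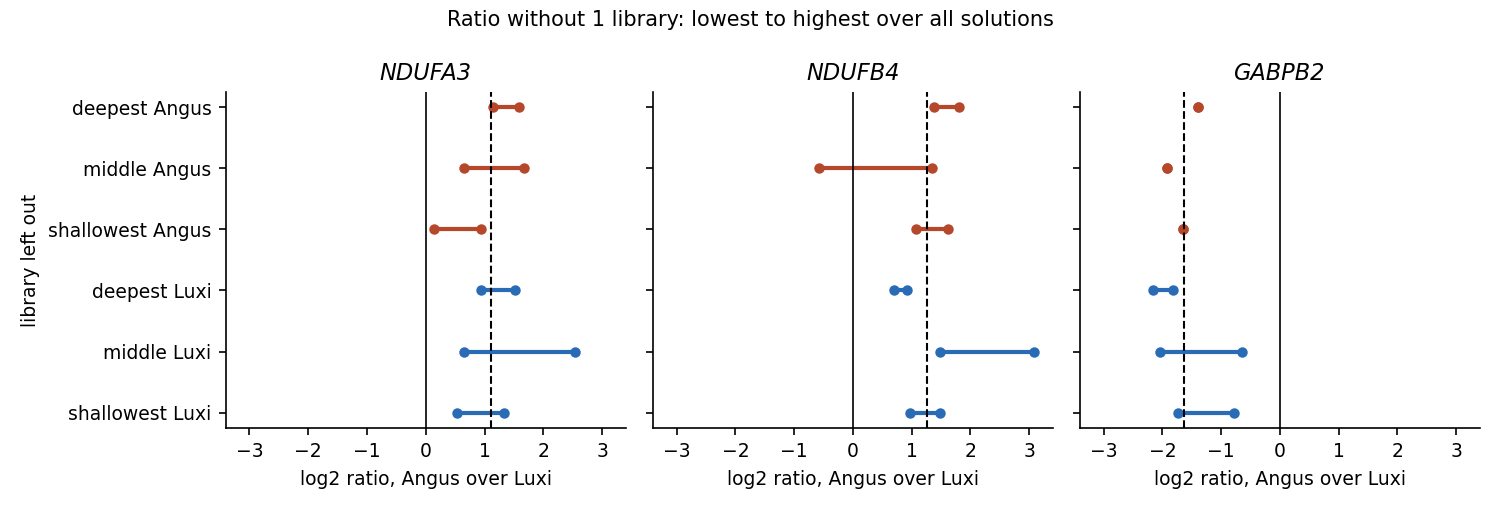
Log2 ratio of Angus over Luxi (x axis) of each member when 1 of the 6 libraries is left out (y axis, red for Angus libraries and blue for Luxi libraries). Bars run from the lowest to the highest value over all solutions, the dashed line is the value in full and the solid line is 0; only the bar of NDUFB4 without the middle Angus library crosses 0, from -0.58 to 1.34.

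The members were read against the rest of the list. Of all 232 entries, 63.4% were higher in Angus, as both subunits were, and 36.6% in Luxi, as GABPB2 was. The ratios of the subunits were among the smaller ones in their direction. NDUFA3 ranked 101 and NDUFB4 76 of the 122 entries that were higher in Angus and above 0 in both breeds, where the median was 2.67-fold. GABPB2 ranked 20 of 63 such entries higher in Luxi, where the median was 2.62-fold. As the filter of the authors ends at a log2 ratio of 1.00, NDUFA3 at 1.11 stood near its edge.

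Other respiratory chain entries were sought by the annotation in the deposited table, a search made after the values had been seen. Including the subunits, 6 entries named a subunit of the chain in their description or protein match, and 6 of 6 averaged higher in Angus, against 63.4% of all 232 entries. NDUFA3 and NDUFB4 were chosen by these values, so the search adds 4 entries, and those 4 were found among entries that had already passed the authors' filter. The ratios of the 6 ran from 2.10 to 4.22 with a median of 2.30. The median of all 122 entries above 0 in both breeds and higher in Angus was 2.67-fold. Of the 6, 3 are expressed sequence tag (EST) clusters whose best protein match is encoded in mitochondrial DNA. They are named by that match alone, and a cluster can also hold sequence of neighbouring genes.

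A cluster of 1412 bases that matched ND1, a core subunit of the membrane arm of complex I, had means of 98.0 RPKM for Angus and 33.9 RPKM for Luxi in the authors' deposited table, a ratio of 2.89. Another of 1119 bases matched ND4L, a further core subunit of the membrane arm, with means of 25.0 RPKM for Angus and 11.4 RPKM for Luxi, a ratio of 2.20 in the authors' deposited table. The last, of 551 bases, matched subunit I of cytochrome c oxidase, the catalytic subunit of complex IV. That match was to the protein of a shrew, Sorex unguiculatus, so the naming of this cluster is less certain. It had means of 161 RPKM for Angus and 76.5 RPKM for Luxi, a ratio of 2.10 in the authors' deposited table. All were more abundant per length than NDUFB4 in both breeds, and the ND1 and cytochrome c oxidase clusters more so than NDUFA3.

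LOC780981, described as similar to the Rieske iron-sulfur subunit of complex III, had the largest ratio of the group. Its means in the authors' deposited table were 20.4 RPKM for Angus and 4.82 RPKM for Luxi, a ratio of 4.22. The gene that encodes the Rieske protein, UQCRFS1, was not analysed here. How the authors counted reads shared by similar sequences is not stated in the labels or the file, so the level of this entry is uncertain.

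The ratios of these 4 entries also depended on single libraries. Without the shallowest Angus library the log2 ratio lay between 0.96 and 1.69 for LOC780981, between 0.06 and 1.07 for the ND1 cluster and between -0.00 and 1.05 for the cytochrome c oxidase cluster. For the ND4L cluster it lay between -0.74 and 1.56 without the middle Angus library. The direction was kept in every solution, whichever library was left out, by 3 of the 6 entries, namely LOC780981, the ND1 cluster and NDUFA3, against 44.9% of the 185 entries above 0 in both breeds. None of the 6 was free of overlap between the breeds in every solution, against 10.8% of the 185. Freedom from overlap in at least 1 solution was found for NDUFA3, NDUFB4 and LOC780981, against 68.6% of the 185. The breeds overlapped in every solution for the ND1, ND4L and cytochrome c oxidase clusters.

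**Figure D3:**
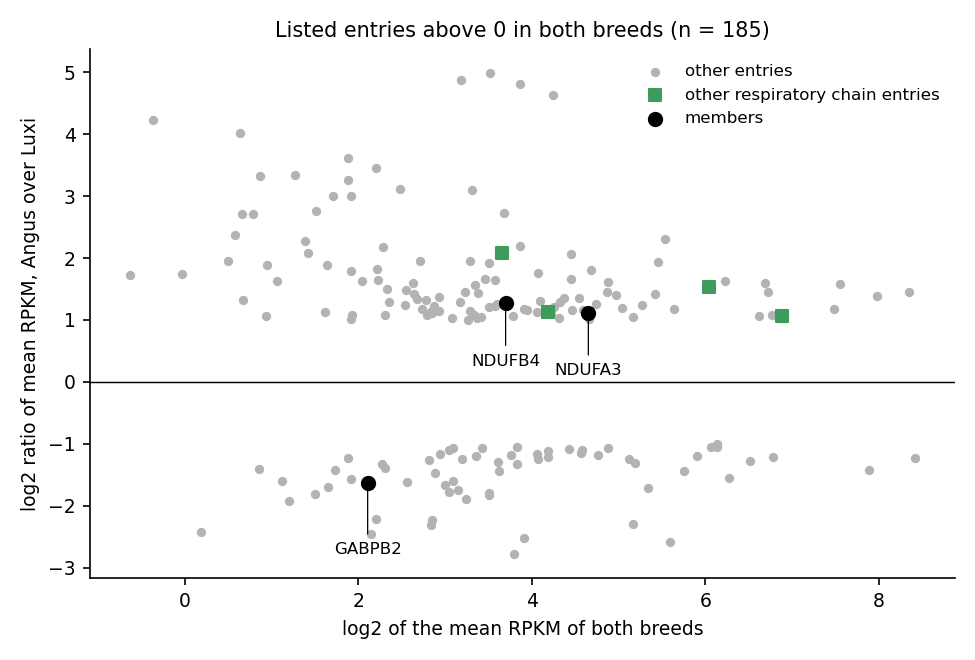
Log2 ratio of the deposited breed means, Angus over Luxi (y axis), against the log2 of their average RPKM (x axis) for the 185 entries above 0 in both breeds. Black points are the members and green squares the other 4 respiratory chain entries; all 6 respiratory chain entries lie above 0, between 1.07 and 2.08, and GABPB2 lies at -1.64.

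By symbol, the table held 2 of 44 complex I subunits from a list of the known subunits, which were NDUFA3 and NDUFB4. Of the lists for complex I assembly factors (16 symbols), complex II (4), complex III (10), complex IV (20) and complex V (34), it held 0 entries. Of 25 regulators of mitochondrial genes, among them GABPA, GABPB1, NRF1, TFAM and PPARGC1A, it held 1, which was GABPB2. Lists for the tricarboxylic acid cycle (18) and for mitochondrial import and protein quality (18) also had 0. The levels of the remaining list members were not analysed here. Of the 232 entries, 163 carried a gene identifier. The share of all genes that reached the table was not available here. These list counts, and those of the lists below, therefore cannot be called many or few.

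Of a list of 22 genes of fatty acid oxidation, which also counts the carrier FABP3, the table held 2. Of these, 2 of 2 averaged higher in Angus, as did 63.4% of all 232 entries. SLC27A6, a fatty acid transporter outside the list, went the other way, at 0.958 RPKM in Angus and 3.64 RPKM in Luxi. FABP3, which carries fatty acids in the cytosol of muscle cells, had means of 155 RPKM for Angus and 51.6 RPKM for Luxi in the authors' deposited table, a ratio of 3.01. ACADL, a dehydrogenase of long-chain acyl-CoA that feeds electrons to the respiratory chain, had means of 13.4 and 6.06 RPKM, a ratio of 2.22 in the same table of the authors. In some solutions, both lost their direction without the middle Angus library. Over all solutions the log2 ratio without it was -0.07 to 2.17 for FABP3 and -0.01 to 1.55 for ACADL.

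Markers of fibre types and of other cells also stood in the table. Of 10 slow-fibre markers it held MYL3, the slow and cardiac myosin light chain, at 365 RPKM in Angus and 139 RPKM in Luxi. The EST cluster matching myosin-7, the slow myosin heavy chain, had a mean of 163 RPKM for Angus and was listed at 0 for Luxi in the authors' deposited table. It is named by that match alone, so the 0 is that of the cluster and not of the slow myosin gene as a whole. Of 11 fast-fibre markers the table held MYH4, a fast myosin heavy chain, at 28.3 and 1.00 RPKM.

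Of 10 adipocyte markers the table held 2, with a summed level of 18.8 RPKM in Angus and 5.14 in Luxi, and of 9 nerve and Schwann cell markers 3, with 52.2 and 17.4 RPKM. Of 10 connective tissue markers it held 2, with 0.358 RPKM in Angus and 3.37 in Luxi, and of the lists for endothelium, red blood cells and immune cells 0. Of these markers, CIDEC was listed at 0 in Luxi and COMP at 0 in Angus. The listed slow-fibre, fast-fibre, adipocyte and nerve markers were on the side of the complex I subunits, with only 1 symbol for each fibre type. The 2 listed connective tissue markers, COMP and PRG4, were on the side of GABPB2. The lists are short and leave out other genes of these cells. CCDC80, a matrix gene, was at 30.4 RPKM in Angus and 13.7 in Luxi. Of immune genes, CPA3 was at 4.32 RPKM in Angus and 0.894 in Luxi, and BOLA-DQA3 at 15.3 RPKM in Luxi and listed at 0 in Angus. Some of the listed markers, too, rested or could rest on 1 library, depending on the solution. The log2 ratio of ADIPOQ, the other adipocyte marker, was -0.26 to 0.66 without the deepest Angus library, and that of the nerve marker NCAM1 -0.09 to 1.48 without the middle one. Of the 64 Luxi reads of COMP, 79.7% came from 1 library. PRG4, the other connective tissue marker, turned to 0.30 without the deepest Luxi library. Their part in the results for the members was not tested.

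The entries most like each member were those with a symbol and the nearest log2 ratio of the breed means, each mean being over 3 libraries. For NDUFA3 they were NPDC1 (log2 ratio of Angus over Luxi 1.11), RNASE13 (1.13) and MAGIX (1.13). For NDUFB4 they were S100A1 (1.26), SIX2 (1.28) and NFIL3 (1.25). S100A1, a calcium-binding protein of striated muscle, had means of 37.9 RPKM for Angus and 15.8 RPKM for Luxi in the authors' deposited table, close to the values of NDUFA3. For GABPB2 they were the sulfotransferase SULT1A1 (-1.66), the sulfotransferase-like LOC509792 (-1.61) and HABP2 (-1.61), a hyaluronan-binding protease. The likeness is in 1 ratio of breed means and says nothing about single libraries.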

How the data were processed

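Muscle RNA of 3 Angus and 3 Luxi cattle was sequenced. Per the labels' protocols, RNA was extracted with Trizol and libraries were made by the standard Illumina procedure for a HiSeq2000. The labels and headers do not give the aligner, gene set, genome build, counting rule, strandedness or statistical test. Coordinates are therefore left out. The authors deposited 1 table of 232 entries that passed their filter. Its counts were read as means over 3 libraries, since 464 of 464 were whole multiples of 1/3 at 6 digits. The headers name the libraries of each breed but do not state a mean. Its RPKM values were likewise read as breed means, and 0.001, which stood where the count was 0, was read as 0. The deposited log2 ratio is that of the RPKM columns, and the p-value and FDR are the authors' own, per the file headers.

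Reads per library were recovered with Python 3.11.15, numpy 2.4.6, scipy 1.17.1 and numba 0.67.0. A search over library depths kept those for which every entry with reads had a whole-number solution within the printed digits. It found 1 set of depths per breed, fixed to within 4 reads, with a solution for 210 of 210 Angus and 207 of 207 Luxi entries. All solutions within these depths were carried forward, and the middle library is the least well fixed. On 4 tables simulated from the Angus and Luxi read sums, depths came within 10 reads of the true ones in 4 of 4, for 834 of 834 entries the solutions included the true reads, and 224 of 224 single solutions were true.

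Members and lists were chosen with earlier results of these data known. By a stated rule, the entries named are the members, the members of the respiratory chain, regulator, tricarboxylic acid cycle and fatty acid oxidation lists, and the 3 entries with the nearest log2 ratio to each member. Other entries are named beside these, after their values were seen. They are listed markers of fibre types and other cells, the myosin-7 cluster, and SLC27A6, MYH13, ACTC1, PRKAG3, CCDC80, WISP2, ADAMTSL4, CPA3 and BOLA-DQA3. LOC780981 and 3 EST clusters were found by respiratory chain annotation, and the entries higher in Luxi by mitochondrial annotation. Of the 3 members, 3 matched the RefSeq gene table of ARS-UCD2.0 by gene identifier. Read counts without molecular identifiers are not independent molecules, so intervals (exact Poisson or Clopper-Pearson, 95%) cover counting error alone.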

Additional observations from a re-analysis of the deposited data

How the results depend on the processing

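With 1 library left out, over all solutions, the log2 ratio of Angus over Luxi ranged from 0.14 to 2.54 for NDUFA3, from -0.58 to 3.08 for NDUFB4 and from -2.16 to -0.65 for GABPB2. The sign turned for NDUFB4 alone, without the middle Angus library, in the solutions in which that library holds most of its reads. Computed from mean counts over mean depth, or with 1 RPKM added, the ratios of the 3 members stayed within their counting intervals, and so did the share of entries higher in Angus among entries above 0 in both breeds or with a gene identifier. Promoter motif searches, and their alternatives, were not run, since no sequences were used here. No paired analysis was possible because the deposited table gives breed means and the labels share no replicate numbers between the breeds. The recovered reads limit these results, since all sets of library reads but the Angus set of GABPB2 have more than 1 solution, and depth leaves 82 to 448 reads per gene and breed.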

Other observations

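Entries with a mitochondrial annotation stood on both sides, in shares near those of the whole table. In the deposited descriptions, ontology terms and protein matches, 9 entries contained the word mitochondrial or a form of it, and 5 averaged higher in Angus and 4 in Luxi, against 63.4% and 36.6% of all 232 entries. Those higher in Luxi were hexokinase 2 (HK2), which binds the outer mitochondrial membrane, at 32.8 RPKM in Luxi and 14.8 RPKM in Angus, an EST cluster that matched the same protein, at 29.2 and 13.8 RPKM, ALDH5A1, a dehydrogenase of GABA breakdown, at 5.16 and 2.20 RPKM, and CBR4, a reductase of mitochondrial fatty acid synthesis, at 11.6 and 5.49 RPKM, in the authors' deposited table. NDUFA3 is not among the 9, since its row holds no ontology terms. The ND1 and cytochrome c oxidase clusters are not among them either. All of these averaged higher in Angus, so the word search missed entries on that side. For all 4 entries higher in Luxi, the solutions differed on whether the direction held without the middle Luxi library. With that library left out, the highest log2 value of Angus over Luxi among the solutions was 0.11 for ALDH5A1, 0.60 for HK2, 1.18 for the EST cluster and 3.25 for CBR4, and the lowest was below -1 in each.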
